A study of Mus musculus with 15 samples.

Results

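The axon guidance ligands and receptors of mouse were described here as the rows of a count table whose symbols name an Eph receptor, an ephrin, a semaphorin of classes 3 to 7, a plexin, a neuropilin, a netrin, an Unc5 receptor, a Slit, a Robo or Dcc. The symbol rule matched 69 of the 24451 genes of the table and used no measured value. The cells were ES-R1 mouse embryonic stem cells, a pluripotent line from the inner cell mass. Their medium held no serum and was supplemented with N2 and B27, and RNA was taken within 4 days of differentiation. Either a control siRNA or one targeting Vprbp was used, Vprbp being a substrate receptor of a ubiquitin ligase that is also named Dcaf1. The 5 groups of 3 libraries were control siRNA alone, control siRNA with Activin A at 25 ng/ml, control siRNA with the inhibitor SB, Vprbp siRNA alone, and Vprbp siRNA with the same Activin. SB, whose number is written in 2 ways and whose dose the labels leave out, was added to control siRNA cells only. Activin A acts on the receptor kinase ALK4, which passes the signal to Smad2 and Smad3, and SB blocks ALK4 and its close relatives.

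Axon guidance is the steering of growing nerve fibres by attractive and repulsive cues. Ephrins are bound to the cell surface, by a lipid anchor (ephrin-A) or a membrane span (ephrin-B), and activate Eph receptor tyrosine kinases on the neighbouring cell. Semaphorins act on plexins, and most secreted class 3 semaphorins also need a neuropilin as co-receptor. Netrins act on Dcc and Unc5 receptors, and Slits on Robo receptors. The same molecules act outside the nervous system, where they sort cells at tissue boundaries and guide blood vessels and migrating cells of the early embryo.

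Promoter sequence is shown for 4 members on which the results below turn: Ephb1, with the largest rise with SB; Epha2, with the largest fall with SB among members averaging at least 1 CPM (counts scaled to a common library size); Unc5b, which was called in opposite directions with Activin and with SB; and Sema3e, the only member whose window held the FOXH1 site TGTGGATT. The 250 bases before the RefSeq start on GRCm38.p6 are given 5′ to 3′ on the gene's strand, in lower case, with that site in capitals. They lie at chr9:102354694-102354943 on the minus strand for Ephb1, at chr4:141300971-141301220 on the plus strand for Epha2, at chr10:60831582-60831831 on the minus strand for Unc5b and at chr5:14025026-14025275 on the plus strand for Sema3e.
Ephb1: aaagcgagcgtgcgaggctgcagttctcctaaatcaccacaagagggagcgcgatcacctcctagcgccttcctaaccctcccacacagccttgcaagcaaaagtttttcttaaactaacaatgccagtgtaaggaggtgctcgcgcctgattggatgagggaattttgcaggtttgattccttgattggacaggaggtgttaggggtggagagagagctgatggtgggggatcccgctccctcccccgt
Epha2: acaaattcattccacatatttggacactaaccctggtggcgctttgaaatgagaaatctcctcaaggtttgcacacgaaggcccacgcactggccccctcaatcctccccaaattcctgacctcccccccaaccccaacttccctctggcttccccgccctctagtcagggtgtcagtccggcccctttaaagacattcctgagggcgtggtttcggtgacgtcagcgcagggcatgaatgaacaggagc
Unc5b: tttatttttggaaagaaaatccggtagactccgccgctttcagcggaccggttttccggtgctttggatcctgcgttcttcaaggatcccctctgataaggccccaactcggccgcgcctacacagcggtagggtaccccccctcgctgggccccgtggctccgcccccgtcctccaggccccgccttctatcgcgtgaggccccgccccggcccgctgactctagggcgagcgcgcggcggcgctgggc
Sema3e: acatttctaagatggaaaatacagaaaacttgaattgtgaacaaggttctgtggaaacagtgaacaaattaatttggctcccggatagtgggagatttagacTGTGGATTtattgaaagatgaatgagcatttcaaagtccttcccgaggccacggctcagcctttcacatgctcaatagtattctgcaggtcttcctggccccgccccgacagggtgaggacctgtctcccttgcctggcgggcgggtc

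The FOXH1 site in the Sema3e window began 148 bases before the start. FOXH1 is a DNA-binding partner of Smad2 and Smad3. Of the 69 members, 59 had at least 1 RefSeq window of 300 bases, from 250 before to 50 after the start, and these made up 75 of 32851 windows. Letters were matched on both strands and windows of a gene with several starts can overlap. TGTGGATT was found in 0.855% of all windows and in 1 of the 75 member windows, or 1.33%. The palindromic Smad binding element GTCTAGAC was in 0.213% of all windows and the CAGA box AGCCAGACA in 0.387%, and neither was in a member window. The GC-rich Smad motif GGCGCC was in 11.9% of all windows and in 16 member windows, or 21.3%. It was found in 1 of 14 windows of members that fell with SB, that of Sema5b, and in 2 of 9 windows of members that rose, those of Efna2 and Ntn3. GGCGCC holds only G and C, and the GC content of member windows was not compared with that of all windows. A match of letters is a description of the window and not of binding.

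Libraries held 11.1 M to 15.5 M (M, mega) counts assigned to genes, so that 3 counts, the limit that a count of 0 allows, came to between 0.193 and 0.269 CPM for counting error alone. Members took 0.208% to 0.262% of these counts. Values are CPM on library sizes scaled by TMM, in replicate order, and each log2 fold change is given with the standard error (SE) from the fit. A call, a rise or a fall means that edgeR's quasi-likelihood test gave an adjusted p below 0.05 after Benjamini-Hochberg adjustment over all 14600 genes tested. Whether replicates were grown as separate cultures is not stated in the labels, and the p-values therefore describe only the spread between these libraries, which may be technical. Mean CPM of Vprbp was 171.0 with control siRNA and 122.2 with Vprbp siRNA. With Activin added it was 179.1 and 138.3, so that Vprbp RNA was lowered only in part. Mean CPM of Lefty1, a direct target of Activin/Nodal signalling, was 81.8 with control siRNA, 254.7 with Activin and 1.56 with SB. Its control siRNA libraries ranged from 38.1 to 105 CPM, those with Activin from 239 to 272 CPM. On the principal components, control siRNA replicate 3, Vprbp siRNA replicate 3 and Vprbp siRNA with Activin replicate 1 lay apart from the other libraries of their groups.

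The levels of the members spanned a wide range. All 35 ligands and 30 of 34 receptors passed the filter on low counts. The 4 that did not were Epha5 with 10 counts over the 15 libraries, Epha6 with 11, Unc5c with 86 and Plxnb3 with 100. To compare genes, CPM was divided by the exon length in kb of the GENCODE M21 model, to which all 69 members matched. On this scale of CPM per kb, averaged over the 15 libraries, 47 members reached 1, 14 reached 10 and 6 stayed under 0.1. The 5 highest were Plxna1 (41.7), Epha2 (38.5), Sema4b (33.2), Plxnb2 (27.0) and Ephb4 (25.2), which together held 38.3% of the summed level. Plxna1 and Plxnb2 are plexins, Sema4b is a membrane-bound semaphorin, and Ephb4 is the receptor of ephrin-B2. In untreated control siRNA cells the levels per kb of Plxna1 (41.3 ± 2.26), Sema4b (36.9 ± 5.67) and Epha2 (35.0 ± 7.51; SD, n = 3) did not differ beyond their spread, and Plxnb2 (25.3 ± 1.68) and Ephb4 (24.5 ± 1.23) were next.

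**Figure D1:**
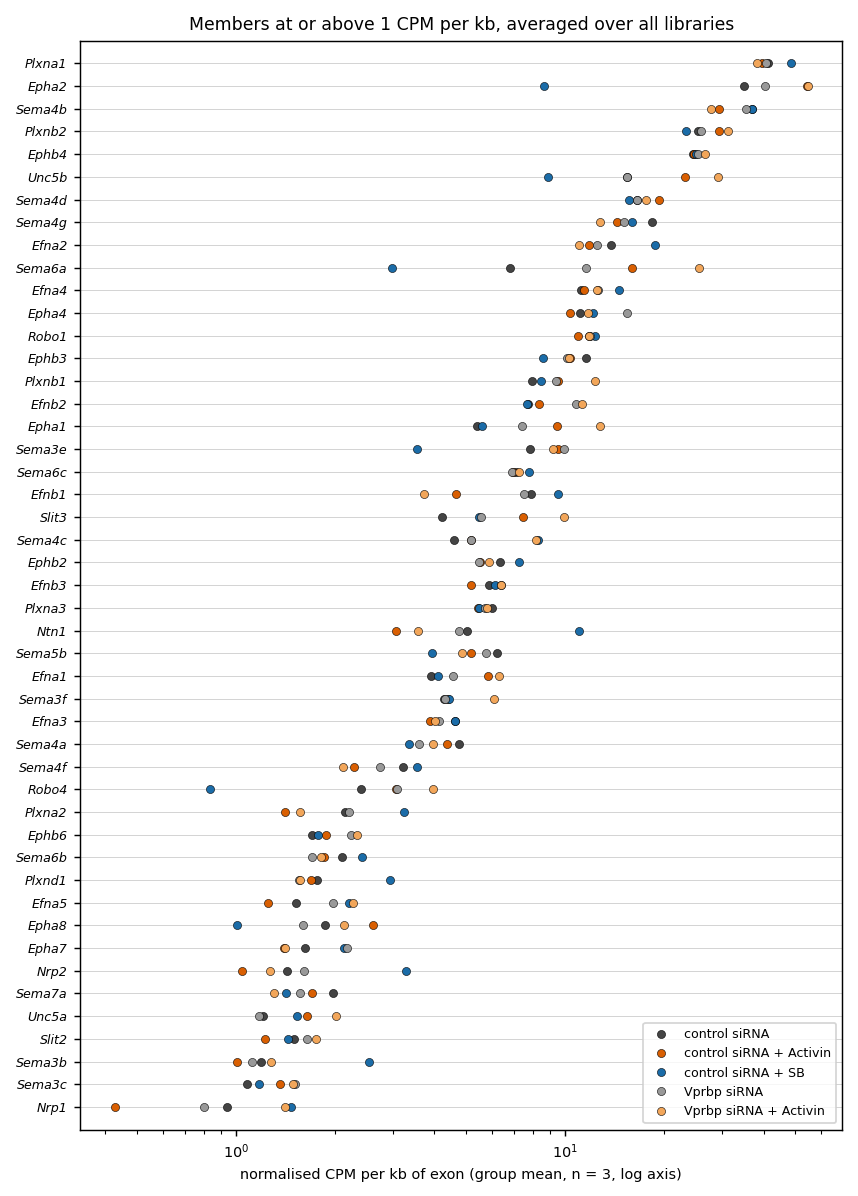
Group means of 3 libraries in CPM per kb of exon, on a log axis, for the 47 members that averaged at least 1, ordered by their average over the 15 libraries. Plxna1 is at the top and Nrp1, at 1.01, at the bottom, and the SB mean of Epha2 lies well to the left of its other group means.

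Within families the levels per kb were uneven. Unc5b (18.4) stood far above Unc5a (1.51), while Unc5d (0.0568) and Unc5c (0.0432) were near the detection limit. Dcc, the attractive netrin receptor and the only member of its family, reached 0.0387 CPM per kb and had no count in 2 of the 15 libraries. Among Robo receptors, Robo1 (11.8) was followed by Robo4 (2.67), Robo3 (0.415) and Robo2 (0.111). Slit3 (6.52) exceeded Slit2 (1.51) and Slit1 (0.758) in the same way. Of the neuropilins, Nrp2 reached 1.73 and Nrp1 1.01. The genes of 3 ephrins, Efna1, Efna3 and Efna4, lie close together on chromosome 3 (from 89271733 to 89338028, GRCm38), and Robo3 and Robo4 lie side by side on chromosome 9. In the GENCODE M21 models these genes do not overlap. Efna1 ends at 89281142, Efna3 spans 89313899 to 89322965 and Efna4 starts at 89333390, while Robo4 ends at 37415115 and Robo3 starts at 37415669. Neither strand-specific counting nor the annotation used for the counts is stated in the sources used here. Reads of any other overlapping genes could therefore not be told apart.

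With SB, 12 of the 65 members tested rose and 12 fell against control siRNA, where 22.6% of all tested genes were called, 11.2% higher and 11.3% lower. The share among members was 36.9%. The ranges of 32 members did not overlap between the groups, where those of 37.2% of all tested genes did not. The median absolute log2 fold change was 0.45 among members and 0.18 among all tested genes, and the median signed change was 0.07 against -0.00. Ligands were called higher in 7 cases and lower in 5 of 35, and receptors higher in 5 and lower in 7 of 30. In bulk RNA, fewer cells of a type and less RNA per cell cannot be told apart.

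**Figure D2:**
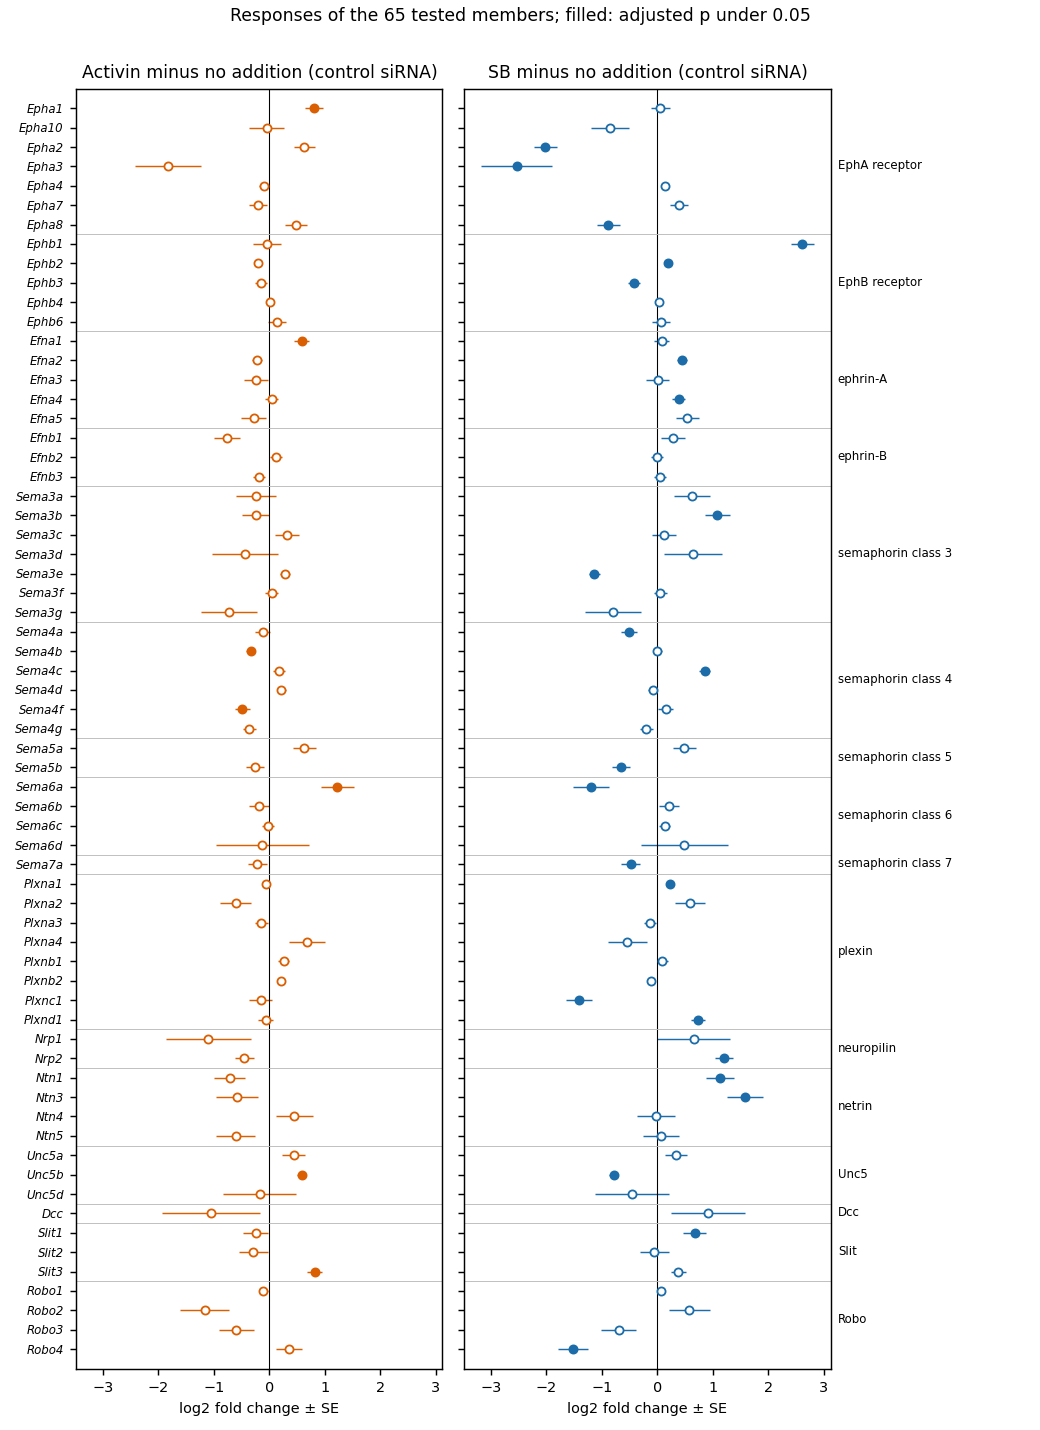
Log2 fold change ± SE of the 65 tested members, by family, with Activin (left) and with SB (right) against control siRNA alone; filled points passed an adjusted p of 0.05. Ephb1 has the largest rise with SB (2.61) and Unc5b lies on opposite sides of 0 with Activin and with SB.

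Among the Eph receptors, 2 of 12 rose and 4 fell with SB. Ephb1, a receptor of ephrin-B ligands, stood at 2.04, 1.38 and 1.27 CPM with control siRNA and at 9.09, 9.84 and 10.0 with SB. The groups lay far apart, and the log2 fold change was 2.61 ± 0.21 (SE), a 6.11-fold rise with an adjusted p of 2.2e-08 by edgeR's quasi-likelihood test. Epha2, a receptor of ephrin-A1, went the other way, from 161, 145 and 104 CPM to 37.1, 33.5 and 30.6 CPM. Every SB library was below every control library, and the fall was 4.05-fold (log2 -2.02 ± 0.21, adjusted p 4.1e-05 by edgeR's quasi-likelihood test). Epha8 fell from 7.73, 7.32 and 11.3 CPM to 4.72, 5.93 and 3.58 CPM (log2 -0.89 ± 0.21). Ephb3 (-0.42 ± 0.11) and Ephb2 (0.18 ± 0.06), both ephrin-B receptors, moved in opposite directions by small amounts. The fourth Eph receptor to fall was Epha3, which averaged under 1 CPM.

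Of 8 ephrins tested, Efna2 and Efna4 rose and none fell with SB. Efna2 read 29.1, 28.9 and 30.3 CPM with control siRNA and 40.4, 43.0 and 36.4 CPM with SB. The groups did not overlap and the log2 fold change was 0.44 ± 0.09 (adjusted p 0.0013 by edgeR's quasi-likelihood test). Efna4, also lipid-anchored, changed by 0.38 ± 0.11. Efna5 had the largest log2 value of the ephrins, 0.54 ± 0.21, with 6.38, 5.22 and 6.82 CPM against 8.29, 9.98 and 8.45 CPM. Its ranges were separate but it was not called (adjusted p 0.072 by edgeR's quasi-likelihood test); the adjusted p was 0.031 with only the libraries compared and 0.015 when the 3 libraries lying apart were left out. The log2 fold changes of the 3 ephrin-B genes lay between -0.01 and 0.28 and were not called. That of Efnb1 was 0.28 ± 0.22 with every library, and without control replicate 3 it was 0.56 and called (adjusted p 0.043 by edgeR's quasi-likelihood test).

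Semaphorins were called higher in 2 cases and lower in 5 of 20. Sema3e, a secreted semaphorin that binds Plxnd1 without a neuropilin, stood at 57.9, 56.2 and 46.5 CPM with control siRNA and at 21.3, 26.0 and 25.7 CPM with SB. The highest SB value lay well below the lowest control value (log2 -1.14 ± 0.10, adjusted p 8.4e-08 by edgeR's quasi-likelihood test). Its receptor Plxnd1 rose at the same time, from 11.7, 10.9 and 14.1 CPM to 21.9, 22.2 and 16.7 CPM (log2 0.73 ± 0.13, adjusted p 0.00034 by edgeR's quasi-likelihood test). Here too the ranges were separate. Sema4c, a membrane semaphorin that binds Plxnb2, rose from 20.5, 18.8 and 19.3 CPM to 38.9, 33.6 and 33.4 CPM, a log2 change of 0.85 ± 0.10. The secreted Sema3b rose from 3.66, 3.26 and 6.37 CPM to 10.4, 10.1 and 7.59 CPM (1.08 ± 0.22). Sema6a, a transmembrane ligand of Plxna2 and Plxna4, fell from 55.0, 59.1 and 31.3 CPM to 18.0, 23.7 and 21.9 CPM (-1.19 ± 0.33). The other falls were of Sema5b, Sema4a and Sema7a, with log2 changes from -0.65 to -0.48.

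Of 10 plexins and neuropilins, 3 rose and 1 fell with SB. Nrp2, a co-receptor for class 3 semaphorins, read 15.3, 16.5 and 12.7 CPM with control siRNA against 35.6, 35.1 and 31.8 CPM with SB. The groups did not overlap (2.30-fold, log2 1.20 ± 0.16, adjusted p 1.8e-05 by edgeR's quasi-likelihood test). Plxnc1, the receptor of Sema7a, fell from 4.34, 3.33 and 4.12 CPM to 1.53, 1.37 and 1.5 CPM (log2 -1.42 ± 0.24). The call of Sema7a itself (adjusted p 0.047 by edgeR's quasi-likelihood test) was lost in 10 of 15 alternative fits, DESeq2 (0.065) among them. Plxna1, the most abundant member, rose from 372, 394 and 353 CPM to 464, 449 and 404 CPM, a change of only 1.18-fold.

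**Figure D3:**
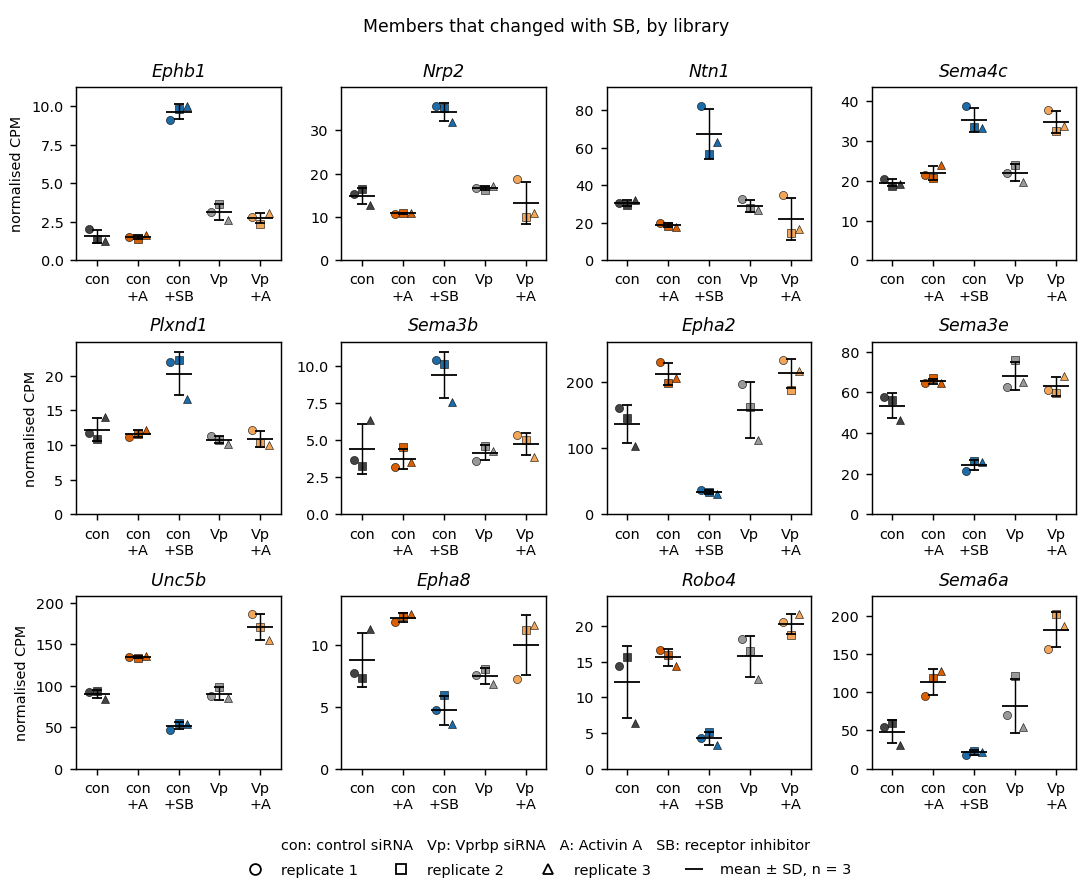
CPM in each library of members called with SB, with the mean and SD of the 3 libraries of a group. The 3 SB libraries lie apart from the 3 control libraries for each gene shown, with Ephb1 at 9.09 to 10.0 against 1.27 to 2.04.

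The netrins Ntn1 and Ntn3 rose and Unc5b fell with SB, out of 8 netrins, Unc5 receptors and Dcc tested. Ntn1, the best studied of these secreted cues, stood at 30.3, 29.2 and 32.3 CPM with control siRNA and at 82.2, 56.4 and 62.9 CPM with SB. The lowest SB library was well above the highest control library, and the fit gave 2.19-fold (log2 1.13 ± 0.25, adjusted p 0.0072 by edgeR's quasi-likelihood test). Ntn3 went from 1.63, 2.61 and 2.77 CPM to 8.29, 7.31 and 5.37 CPM (log2 1.58 ± 0.32). Their repulsive receptor Unc5b declined from 92.2, 93.9 and 84.0 CPM to 46.8, 55.1 and 54.4 CPM (log2 -0.79 ± 0.08, adjusted p 6.3e-07 by edgeR's quasi-likelihood test). Ligands and receptor were thus called in opposite directions within the netrin system. Dcc had 11, 2 and 3 counts with control siRNA and 11, 11 and 8 counts with SB and was not called (adjusted p 0.38 by edgeR's quasi-likelihood test).

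Of 7 Slits and Robos, Slit1 rose and Robo4 fell with SB. Robo4, known mainly from endothelial cells, where it binds Unc5b, read 14.5, 15.7 and 6.44 CPM with control siRNA and 4.29, 5.14 and 3.36 CPM with SB. The ranges were separate, but control replicate 3 was nearer to the SB libraries than to the other control libraries. The log2 fold change was -1.52 ± 0.27 (adjusted p 0.00081 by edgeR's quasi-likelihood test), and -1.82 without the 3 libraries that lay apart. Slit1 changed by 0.67 ± 0.21. Robo1, the most abundant receptor of the family, differed little between groups, with 85.5 to 95.5 CPM in control siRNA libraries and 91.4 to 96.7 CPM in SB libraries.

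Of the 23 SB calls of members averaging at least 1 CPM, 16 held in each alternative fit. Without SB replicate 1, the adjusted p by edgeR's quasi-likelihood test was 0.10 for Efna4, 0.15 for Ephb2, 0.059 for Plxna1, 0.074 for Sema4a, 0.088 for Sema6a, 0.077 for Sema7a and 0.062 for Slit1. Each of these except Plxna1 and Sema4a was also lost when a control library was left out, with adjusted p up to 0.21.

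Markers of cell types moved as well. With SB, 6 of 8 embryonic stem cell markers fell and their summed level lay at 2336 to 2672 CPM against 3926 to 4309 CPM with control siRNA. Of 11 tested neuron markers 3 fell (153 to 170 against 225 to 247 CPM summed), and Dcx, a defining marker of young neurons, did not pass the filter on low counts. Of 6 tested endothelial markers 2 fell, Pecam1 (log2 -0.71 ± 0.12) and Tie1 (-1.30 ± 0.33), with sums of 80.5 to 86.3 against 120 to 152 CPM. Pecam1 made up most of that sum, with means of 75.6 CPM with SB and 123 CPM with control siRNA; Cdh5, a defining endothelial marker, averaged 0.80 and 0.52 CPM, and Emcn did not pass the filter. Neural crest markers gave 4 rises and 2 falls of 6, with sums of 48.0 to 57.2 against 44.0 to 45.7 CPM, and neural plate markers 3 rises and 1 fall of 6, with sums of 219 to 232 against 164 to 280 CPM. Fibroblast markers gave 2 falls of 6 (41.4 to 46.7 against 57.3 to 76.4 CPM summed), and extraembryonic endoderm markers 1 rise of 7 (98.1 to 113 against 86.8 to 92.8 CPM). Their part in the changes of the members was not tested.

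With Activin and control siRNA, 5 members rose and 2 fell of 65, where 4.83% of all tested genes were called, 2.95% higher and 1.88% lower, and the share among members was 10.8%. The median absolute log2 fold change was 0.26 among members and 0.14 among all tested genes, and the median signed change was -0.14 against -0.01. The control libraries are those of the SB comparison, so both comparisons share them. The group ranges of 33 members did not overlap, where 27.6% of all tested genes were separated in this way.

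Unc5b read 134, 134 and 137 CPM with Activin, above the control values of 84.0 to 93.9 CPM given for SB. The Activin libraries agreed closely and the log2 fold change was 0.58 ± 0.08 (adjusted p 0.00025 by edgeR's quasi-likelihood test). Slit3, a secreted ligand of Robo receptors, rose from 21.1, 19.2 and 25.8 CPM to 44.7, 35.8 and 36.0 CPM (log2 0.82 ± 0.14, adjusted p 0.0020 by edgeR's quasi-likelihood test). These 2 calls held in each alternative fit, and no library of one group reached the other.

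Epha1 rose from 17.6, 20.9 and 16.3 CPM to 32.1, 31.8 and 31.7 CPM (log2 0.80 ± 0.16). Its ligand ephrin-A1, encoded by Efna1, rose from 6.58, 8.19 and 6.67 CPM to 11.2, 10.2 and 10.6 CPM (0.58 ± 0.13). Receptor and ligand were thus both higher in every Activin library than in any control library. Sema6a rose from 55.0, 59.1 and 31.3 CPM to 94.7, 118 and 127 CPM (1.22 ± 0.30). The membrane semaphorins Sema4b (-0.34 ± 0.08) and Sema4f (-0.49 ± 0.14) fell, Sema4b from 135, 137 and 175 CPM to 113, 124 and 117 CPM and Sema4f from 12.2, 12.1 and 15.0 CPM to 10.0, 8.13 and 9.79 CPM. All 5 were lost when control replicate 3 was left out, with adjusted p by edgeR's quasi-likelihood test of 0.063 for Epha1, 0.064 for Efna1, 0.17 for Sema6a, 0.15 for Sema4b and 0.23 for Sema4f, which left 3 members called in that fit. The count was also 3 without Activin replicate 1 or 3, and 4 without Activin replicate 2. Of the 6 fits that left out 1 library, Sema6a was lost in 6, Sema4f in 5, Sema4b in 4, Efna1 in 3 and Epha1 in 1.

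Leaving out the 3 libraries that lay apart gave 11 members called with Activin, Epha2, Ntn1, Nrp2, Efnb1 and Plxnb2 among them, with Epha2 at 0.47 on the log2 scale. With every library, Epha2 stood at 231, 198 and 207 CPM with Activin against 161, 145 and 104 CPM, and the adjusted p was 0.097 by edgeR's quasi-likelihood test (log2 0.63 ± 0.20). The ranges were separate and the lowest control value came from replicate 3. Ntn1 (19.7, 18.3 and 17.8 CPM) and Nrp2 (10.7, 10.8 and 11.0 CPM), which rose with SB, were below every control library with Activin and had adjusted p of 0.16 and 0.14 by edgeR's quasi-likelihood test with every library. Without the 3 libraries these were 0.0043 and 0.0034, and Ntn1 was also called in the fit of only the libraries compared, without (0.00063) and with (0.0011) a replicate block. Extraembryonic endoderm markers gave 2 rises of 7 with Activin (114 to 135 against 86.8 to 92.8 CPM summed), and neural crest markers 1 of 6 (63.6 to 74.3 against 44.0 to 45.7 CPM). Neural plate markers gave 1 rise and 2 falls of 6 (341 to 351 against 164 to 280 CPM summed). Otx2 made up most of the Activin sum, with means of 249 CPM with Activin and 127 CPM with control siRNA. By mean, Nes was also higher (49.2 against 27.4 CPM), and Sox1 (33.6 against 53.5 CPM) and Pax6 (12.8 against 26.0 CPM) were lower. Embryonic stem cell markers gave 1 rise and 1 fall of 8 (4208 to 4655 against 3926 to 4309 CPM), neuron markers 1 and 1 of 11 (228 to 230 against 225 to 247 CPM), fibroblast markers 0 and 1 of 6 (52.2 to 57.9 against 57.3 to 76.4 CPM), and none of 6 endothelial markers was called (133 to 138 against 120 to 152 CPM). Their part in the changes of the members was not tested.

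Setting Activin directly against SB gave the largest count. Of 65 members, 14 were higher and 20 lower with Activin, or 52.3%, where 38% of all tested genes were called, 19% higher and 19% lower. Ranges were separate for 45 members and for 54.9% of all tested genes. The contrast holds no untreated library, but its estimate of the spread comes from the fit of all 15 libraries, untreated ones included. Among receptors, Epha2 was 6.28-fold higher with Activin (log2 2.65 ± 0.21), Robo4 3.66-fold (1.87 ± 0.27), Unc5b 2.59-fold (1.37 ± 0.08) and Epha8 2.58-fold (1.37 ± 0.20). Ephb1 was 6.31-fold lower (-2.66 ± 0.21) and Nrp2 3.15-fold lower (-1.65 ± 0.16). Among ligands, Sema6a was 5.34-fold (2.42 ± 0.32) and Sema3e 2.68-fold higher (1.42 ± 0.10), while Ntn3 was 4.5-fold (-2.17 ± 0.34), Ntn1 3.61-fold (-1.85 ± 0.27) and Sema3b 2.52-fold lower (-1.33 ± 0.23). Adjusted p-values of these 11 members by edgeR's quasi-likelihood test ran from 9.4e-11 for Unc5b to 0.00020 for Ntn1.

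Some members that were not called for either addition against control siRNA in the fit of all libraries were called between the additions. Plxna2, a receptor of Sema6a, read 13.2, 18.9 and 14.7 CPM with Activin and 41.1, 33.5 and 32.4 CPM with SB (log2 -1.20 ± 0.28, adjusted p 0.0047 by edgeR's quasi-likelihood test). Against control siRNA, Plxna2 was called with SB in alternative fits, at an adjusted p of 0.014 with only the libraries compared, 0.019 with a replicate block added and 0.00089 without the 3 libraries that lay apart. Efnb1, a transmembrane ephrin, read 16.4, 14.5 and 14.5 CPM with Activin and 36.1, 28.8 and 28.1 CPM with SB (-1.04 ± 0.23). Untreated control libraries, at 18.9, 23.1 and 34.9 CPM, spanned most of the gap, and DESeq2 called Efnb1 with Activin against them (adjusted p 0.0088). Efna5 (-0.82 ± 0.22) and Epha7 (-0.60 ± 0.16), another ligand and receptor pair of the A class, were lower with Activin as well. Sema4d, a ligand of Plxnb1, was slightly higher (0.30 ± 0.08), with 92.9, 87.2 and 93.8 CPM against 70.3, 76.5 and 75.0 CPM, as was Plxnb2 (0.33 ± 0.07), with 186, 193 and 197 CPM against 159, 158 and 141 CPM. DESeq2 also called Plxnb2 with Activin against control siRNA (adjusted p 0.045). Nrp1 was not called between the additions in the fit of all libraries. It was called lower with Activin when only the libraries compared were fitted (log2 -1.74, adjusted p 6.5e-07 by edgeR's quasi-likelihood test) and by DESeq2 (-1.77, adjusted p 0.033). Of the 33 calls of members averaging at least 1 CPM, 29 held in each alternative fit. Without Activin replicate 1 the adjusted p was 0.053 for Efna4, 0.057 for Epha4, 0.22 for Sema4a and 0.094 for Slit3 by edgeR's quasi-likelihood test.

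With Vprbp siRNA, Activin changed 17 of the 65 members, 11 higher and 6 lower, or 26.2%, where 6.12% of all tested genes were called, 3.65% higher and 2.47% lower. Ranges were separate for 23 members and for 21.4% of all tested genes. These 6 libraries are not among those contrasted for Activin with control siRNA. Both comparisons come from the same fit of all 15 libraries and share its estimate of the spread, so they are not fully independent. Unc5b stood at 87.5, 99.1 and 85.2 CPM with Vprbp siRNA and at 186, 171 and 156 CPM with Activin added. The log2 fold change was 0.92 ± 0.08 (adjusted p 1.5e-06 by edgeR's quasi-likelihood test), and the groups lay wide apart. Slit3 went from 29.4, 31.3 and 26.6 CPM to 63.2, 48.4 and 43.7 CPM (0.83 ± 0.13), and Epha1 from 22.1, 32.6 and 20.0 CPM to 48.6, 44.4 and 36.7 CPM (0.80 ± 0.16). Sema4c rose from 22.1, 24.1 and 19.8 CPM to 37.9, 32.6 and 33.9 CPM (0.66 ± 0.10). Epha4, a receptor of both ephrin classes, fell from 100, 92.0 and 101 CPM to 69.0, 70.1 and 84.1 CPM (-0.39 ± 0.08).

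Sema6a (1.15 ± 0.29), Efna1 (0.46 ± 0.13) and Sema4b (-0.35 ± 0.08) were called in the direction they had with control siRNA. Efnb1 fell from 24.7, 21.6 and 26.8 CPM to 17.1, 9.68 and 9.64 CPM (-1.02 ± 0.24), and Epha7 fell from 19.9, 13.1 and 16.3 CPM to 10.3, 9.53 and 12.3 CPM (-0.62 ± 0.16). The remaining rises, of Plxnb2, Plxnb1, Sema3f, Unc5a and Sema5a, lay between 0.26 and 0.81 on the log2 scale, and Epha3 and Robo2, both averaging under 1 CPM, fell. Only 6 members were called without Vprbp siRNA replicate 1, 7 without Vprbp siRNA replicate 3 and 8 without Vprbp siRNA with Activin replicate 2. Without Vprbp siRNA replicate 1 the adjusted p by edgeR's quasi-likelihood test was 0.099 for Efna1, 0.068 for Efnb1, 0.15 for Epha7, 0.074 for Plxnb2, 0.061 for Sema3f, 0.072 for Sema4b, 0.054 for Sema5a, 0.14 for Sema6a and 0.063 for Unc5a, and without replicate 3 it was 0.12 for Plxnb1. The calls of Unc5b, Slit3, Sema4c and Epha4 held in each alternative fit.

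The difference between the Activin responses of the 2 siRNAs was tested directly. No member was called, and 0% of all tested genes were called by edgeR's quasi-likelihood test. At an unadjusted p under 0.05 the test gave 6 members and 517 of all tested genes, and DESeq2 called none. The smallest p among members was that of Sema4c, whose response was larger by 0.49 ± 0.14 on the log2 scale with Vprbp siRNA (unadjusted p 0.0028, adjusted p 0.999 by edgeR's quasi-likelihood test). The response of Unc5b was larger by 0.33 ± 0.11 and that of Epha4 differed by -0.29 ± 0.11, with the same adjusted p.

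With Vprbp siRNA alone 1 member rose. Epha4 read 75.2, 66.5 and 68.2 CPM with control siRNA and 100, 92.0 and 101 CPM with Vprbp siRNA. The groups did not overlap and the log2 fold change was 0.48 ± 0.08, or 1.40-fold (adjusted p 0.017 by edgeR's quasi-likelihood test), where 0.0411% of all tested genes, 6 in number, were called. The call was lost without control replicate 2 (adjusted p 0.12), control replicate 3 (0.085) or Vprbp siRNA replicate 1 (0.18). Efnb2, a transmembrane ephrin that binds Epha4 and Ephb4, read 38.7, 40.2 and 31.6 CPM against 51.0, 60.3 and 43.3 CPM, also without overlap (0.48 ± 0.11, adjusted p 0.18). Same-numbered libraries of these groups deviated together, and with the replicate number as a block in the fit of all libraries 2 members were called, Epha4 and Efnb2 (adjusted p 0.029 by edgeR's quasi-likelihood test). With the block in a fit of only the 6 libraries compared, 6 were called: Epha4, Efnb2 (log2 0.48, adjusted p 0.0011), Epha1 (0.43, 0.027), Sema3e (0.34, 0.018) and Sema6a (0.73, 0.00029) as rises and Sema4g (-0.28, 0.037) as a fall. Efnb2 was called without a block too, by DESeq2 (adjusted p 0.030). By edgeR's quasi-likelihood test without the 3 libraries that lay apart, Efnb2 (adjusted p 0.0058) and Slit3 (log2 0.59, adjusted p 0.011) were called. At an unadjusted p under 0.05, 15 of 65 members and 1191 of 14600 tested genes passed, and ranges were separate for 16 members and for 12.3% of all tested genes.

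**Figure D4:**
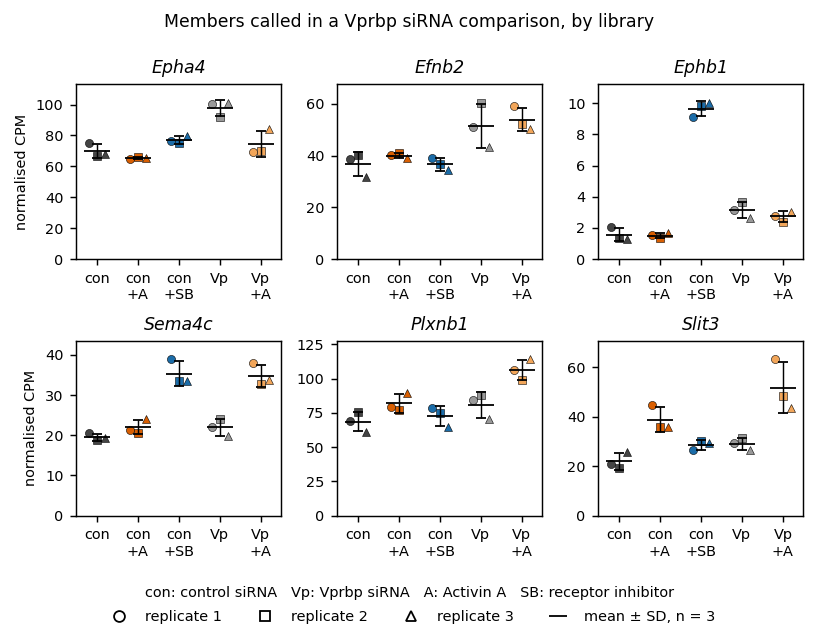
CPM in each library of members called for Vprbp siRNA in a single comparison or on average over both conditions, with the mean and SD of the 3 libraries of a group. Epha4 lies at 92.0 to 101 CPM with Vprbp siRNA alone against 66.5 to 75.2 CPM with control siRNA.

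In the presence of Activin, 1 member was called for Vprbp siRNA, Sema4c, where 0.0411% of all tested genes were called. It stood at 21.4, 20.7 and 23.9 CPM with control siRNA and at 37.9, 32.6 and 33.9 CPM with Vprbp siRNA, a 1.58-fold difference (log2 0.66 ± 0.10, adjusted p 0.014 by edgeR's quasi-likelihood test). The groups were clearly apart, but the call was lost when any of the 3 Activin libraries with control siRNA was left out (adjusted p 0.18 for replicate 1, 0.11 for replicate 2 and 0.059 for replicate 3). With a replicate block 3 members were called, Sema4c, Efnb2 (adjusted p 0.043 by edgeR's quasi-likelihood test) and Unc5b (0.049). Deviations of same-numbered libraries correlated at only 0.24, -0.02 and 0.05 between these groups, so a pairing by number was not seen here. Without a block, DESeq2 also called Efnb2 (adjusted p 0.043) and Unc5b (0.020). By edgeR's quasi-likelihood test without the 3 libraries that lay apart, the adjusted p was 0.024 for Efnb2 and 0.040 for Unc5b. With only the libraries compared, Efnb2 was called as well (adjusted p 0.038 by the same test). Without Activin, Sema4c differed by 0.17 ± 0.10 (adjusted p 0.70), the ranges overlapping. At an unadjusted p under 0.05, 17 of 65 members and 1532 of 14600 tested genes passed, and ranges were separate for 17 members and for 17.4% of all tested genes.

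In the average of the knockdown effect over both conditions, a comparison added after the data were seen, 6 members rose and none fell with Vprbp siRNA, or 9.23%, where 0.938% of all tested genes were called and 0.664% were called higher and 0.274% lower. It uses the libraries of both single comparisons and is no independent support for them. Ephb1 was 1.89-fold higher (log2 0.92 ± 0.17), with 3.13, 3.68 and 2.62 CPM against 2.04, 1.38 and 1.27 CPM without Activin and 2.79, 2.38 and 3.05 CPM against 1.53, 1.35 and 1.65 CPM with it. Neither single comparison of Ephb1 passed the threshold (adjusted p 0.19 and 0.21 by edgeR's quasi-likelihood test), although every knockdown library was above every control library. Efnb2, its ligand, was higher by 0.46 ± 0.08, with 40.0, 40.8 and 39.0 CPM against 58.9, 52.1 and 50.4 CPM under Activin. Epha4 (0.33 ± 0.05), Sema4c (0.41 ± 0.07), Slit3 (0.41 ± 0.09) and Plxnb1 (0.30 ± 0.07) were the others. Slit3 and Plxnb1 were each lost in 9 of the 12 fits that left out 1 library. Without Vprbp siRNA replicate 2, for example, the adjusted p was 0.13 and 0.12 by edgeR's quasi-likelihood test.

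Genes that act with these ligands and receptors were described from 2 further lists. Of 56 adaptors, kinases, GTPase regulators and cytoskeletal effectors of guidance signalling, all passed the filter, and 14 rose and 7 fell with SB, 37.5% in all, where 22.6% of all tested genes were called. Farp1, an exchange factor that binds plexins, rose (log2 0.85 ± 0.08), as did Chn2 (1.10 ± 0.15), a Rac-regulating chimaerin, and Grip1 (0.69 ± 0.10), a scaffold for ephrin-B, while the cofilin phosphatase Ssh1 fell (-0.58 ± 0.07). With Activin 2 rose and 3 fell, where 4.83% of all tested genes were called. Neither knockdown comparison called any by edgeR's quasi-likelihood test; 5 and 8 of the 56 passed an unadjusted p under 0.05 without and with Activin, beside 1191 and 1532 of all 14600 tested genes. Of 36 tested genes for other guidance cues and receptors, 10 rose and 8 fell with SB, or 50%, beside the same 22.6%. Rgma, a ligand of the netrin receptor Neo1, rose (1.34 ± 0.19), as did the Wnt receptors Ryk (0.38 ± 0.06) and Fzd3 (0.64 ± 0.11), and the cadherin Celsr3 fell (-0.63 ± 0.09). With Activin 2 rose and 1 fell, beside 4.83% of all tested genes, and the adhesion molecule Nrcam was 1 of the rises (1.34 ± 0.29).

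Several members were high in 1 of the 3 libraries that lay apart. In Vprbp siRNA with Activin replicate 1, Nrp1 read 11.3 CPM against 2.09 and 1.80 CPM in the other 2 libraries of its group, and Sema6d, a transmembrane semaphorin, 14.2 against 2.53 and 1.32 CPM. The same library was highest of its group for Slit2 (27.9 against 10.9 and 13.8 CPM), Ntn1 (34.6 against 14.4 and 16.4 CPM), Plxna2 (26.0 against 11.3 and 14.3 CPM) and Nrp2 (18.7 against 9.89 and 11.0 CPM). These 6 members were chosen after their values were seen. Without this library, Ntn1 (log2 -0.90, adjusted p 0.00082), Plxna2 (-0.91, 0.025) and Nrp2 (-0.67, 0.0030) fell with Activin and Vprbp siRNA by edgeR's quasi-likelihood test. With every library these falls were not called. The summed extraembryonic endoderm markers of the group reached from 112 to 173 CPM, the highest value in this library, and those of neural crest from 83.4 to 102 CPM. Their part in the values of the members was not tested.

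**Figure D5:**
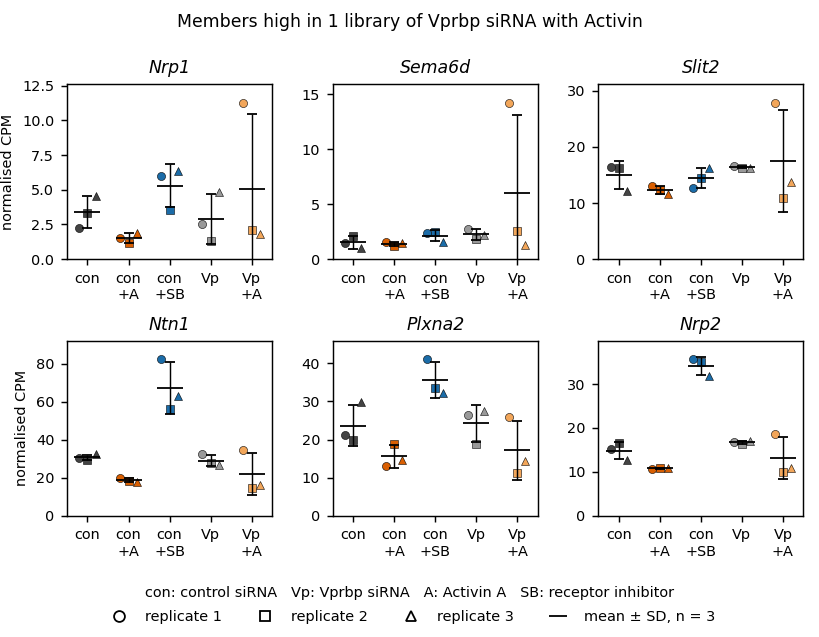
CPM in each library of 6 members that were high in replicate 1 of Vprbp siRNA with Activin, with the mean and SD of the 3 libraries of a group. Sema6d reaches 14.2 CPM in that library and at most 2.75 CPM in any other.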

How the data were processed

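RNA of 15 libraries, 3 in each of 5 groups named by the sample titles, was sequenced, and the deposited file holds fragment counts per gene symbol, not normalized by the authors. The submitters' processing notes name HTSeq 0.6.1p1 and mm10 as tool and build. Not given in the sources used here are the aligner, the annotation and whether strand was used. The 5 tally rows were left out. Genes passing edgeR's filterByExpr (minimum count 10; 14600 of 24451) were fitted over all 15 libraries with TMM scaling and robust quasi-likelihood tests (edgeR 4.0.16, R 4.3.3), adjusted by Benjamini-Hochberg within each comparison (7, and 1 added after the data were seen) at a threshold of 0.05. The procedure was tested on simulated data only for Activin against no addition with control siRNA. That simulation gave all genes the same dispersion and held no libraries lying apart, so it does not cover the spread of the real libraries. CPM was computed on the scaled library sizes, and per kb with GENCODE M21 exon lengths (GRCm38). Promoter windows came from RefSeq on GRCm38.p6. No 2 replicates agreed within sampling noise.

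The members, gene lists and tests were chosen with earlier results of these data known. Values in every library were to be given for at most 30 members, those averaging at least 1 CPM that were called in at least 1 comparison, taken by the smallest adjusted p; members under 1 CPM were to be given by counts, unless alone in their family as Dcc is. Up to 4 genes were named from each further list in each comparison described. Whether replicate numbers pair libraries was checked on the data: the deviations of 2 libraries with 1 number from the means of their groups correlated at 0.18, 0.25 and 0.48 between control siRNA and Vprbp siRNA, all above 0.1, which was so for no other 2 groups. The labels do not state a shared batch. Alternatives were RLE size factors, library totals, no filter, a filter of 1 CPM in 3 libraries, a replicate block, DESeq2 1.42.0, fitting the compared libraries alone, leaving out each library, and leaving out the 3 libraries that lay apart.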

Additional observations from a re-analysis of the deposited data

How the results depend on the processing

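No call of a member averaging at least 1 CPM reversed its direction under any alternative that was run. Counts of members called moved by more than 1.5 times as follows. For Activin with control siRNA (7 members), 12 were called with a replicate block and only the libraries compared, 11 without the 3 libraries that lay apart, and 3 to 8 when 1 library was left out. For Activin with Vprbp siRNA (17), 8 were called with only the libraries compared and 6 to 18 with 1 library left out. For Vprbp siRNA without Activin (1), DESeq2 called 2, only the libraries compared 0, the replicate block 2, the block with only the libraries compared 6, the fit without the 3 libraries 3, and leaving out 1 library 0 to 2. For Vprbp siRNA with Activin (1), the same settings gave 5, 2, 3, 7 and 6, and 0 to 3. The cause was not tested. Counts for SB (17 to 27 with 1 library left out), Activin against SB (32 to 34) and the averaged knockdown effect (4 to 8) stayed within 1.5 times, and the difference between Activin responses stayed at 0 members in every fit. The replicate block alone changed no other count of calls by more than 1.5 times. The limit for a count of 0 was 0.193 to 0.269 CPM, so the 10 members averaging under 1 CPM rest on few counts and small changes in them were not detectable at this depth.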
